A study of Mus musculus with 14 samples.

Results

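IAPEz-int is the name that the RepeatMasker annotation gives to the internal, protein-coding part of intracisternal A-particle (IAP) retrotransposons of the IAPEz type. All rows carrying exactly this subfamily name, of any length, were taken from the deposited tables of single transposable element (TE) copies, together with the IAPEz-int row of the tables of counts per gene and TE subfamily. This gave 7319 of 3725827 annotated TE copies (0.196%), of 12 to 6647 bp (median 753 bp) and 11883 kb in all. Because RepeatMasker splits 1 insertion into several rows, neighbouring fragments on 1 strand were joined into 2914 insertions. A read was assigned to 3704 copies in spermatogonia (Spg), to 4302 in spermatocytes (Spc) and to 3369 in both, while 2682 copies had none in any library.

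Polyadenylated RNA of sorted germ cells from the testes of Dnmt3CKO/KO mice (KO) and wild-type littermates (WT), on a C57Bl6/J background, was sequenced in 14 libraries. Spg were sorted at postnatal day 14 as Ep-CAM-positive, B2M-negative cells (3 KO and 3 WT libraries), and Spc from mice older than 20 days by Hoechst staining (4 KO and 4 WT libraries). The KO is constitutive, so all cells of a KO animal carry it, and KO germ cells arrest in pachytene, whereas the WT Spc sort also held later cells. Nothing in the labels ties a library to a single animal, so p-values measure the spread between libraries. Total counts were 40555726 to 53323651 per library. Summed levels in CPM (counts scaled to library size) of 6 pachytene marker genes were 116 to 237 in KO Spc against 7269 to 13825 in WT Spc, and those of 6 spermatogonial marker genes were 335 to 826 against 31.2 to 203. In Spg the spermatogonial sum was 1410 to 1879 in KO and 1236 to 1694 in WT, and the pachytene sum was 95.9 to 109 in KO and 230 to 1841 in WT. Markers of the somatic cells of the testis were also higher in KO Spc, with sums of 46.6 to 276 CPM against 12.4 to 24.6 CPM for Leydig cells (5 genes), 13.6 to 128 against 2.53 to 7.59 for peritubular cells (4 genes), 15 to 89.1 against 2.24 to 4.29 for macrophages (4 genes) and 4.69 to 9.79 against 0.281 to 2.21 for lymphocytes (3 genes), none of which overlapped. Sertoli cell markers, at 61.5 to 264 CPM in KO Spc and 27.5 to 88.6 CPM in WT Spc, overlapped. The part of these differences in the results was not tested, and fewer cells of a type cannot be told apart from less RNA per cell.

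An IAP insertion consists of an internal region, which encodes the Gag and Pol proteins, between a pair of long terminal repeats (LTRs). The 5′ LTR holds the promoter, and transcription starts in it and runs into the internal region, where a primer binding site for reverse transcription lies close to the LTR. IAPs are among the youngest and most mobile retrotransposons of the mouse, and cytosine methylation of their LTRs is the best known means by which they are kept silent. In male fetal germ cells this methylation is set by DNMT3C, a methyltransferase that acts on promoters of young retrotransposons, guided by the piRNA pathway.

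The LTRs themselves are annotated as subfamilies of their own (IAPLTR1_Mm, IAPLTR1a_Mm, IAPLTR2_Mm and others), so each insertion was classed by the LTR found at its 5′ end. RefSeq promoter windows (GRCm38.p6, 300 bases around a gene's start) that lie largely inside the 5′ LTR of an IAPEz-int insertion show these promoters. The 5 windows with at least 200 LTR bases are printed here on the strand of the IAP, and they cover 3 of the LTR classes described below. Capitals mark TGCGCATG, the core of the sequence bound by the transcription factor NRF1, and TGACGTCA, the cyclic AMP response element bound by CREB1 and related factors. Both motifs were searched on both strands.
Eps8l1 window, chr7:4460447-4460746, minus strand, IAPLTR1_Mm: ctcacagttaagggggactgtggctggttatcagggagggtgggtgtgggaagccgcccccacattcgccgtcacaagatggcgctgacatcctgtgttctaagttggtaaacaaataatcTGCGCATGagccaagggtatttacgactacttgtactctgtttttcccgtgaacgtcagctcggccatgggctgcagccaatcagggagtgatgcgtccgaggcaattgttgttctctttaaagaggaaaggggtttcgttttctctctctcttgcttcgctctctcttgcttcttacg
Gm39637 window, chr1:45734080-45734379, plus strand, IAPLTR1_Mm: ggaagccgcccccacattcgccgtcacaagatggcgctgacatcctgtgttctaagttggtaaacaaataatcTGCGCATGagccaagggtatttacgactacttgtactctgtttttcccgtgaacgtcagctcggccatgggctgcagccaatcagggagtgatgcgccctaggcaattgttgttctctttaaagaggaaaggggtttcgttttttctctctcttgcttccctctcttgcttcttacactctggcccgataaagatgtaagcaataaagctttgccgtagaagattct
Gm14149 window, chr2:151204945-151205244, plus strand, IAPLTR1_Mm: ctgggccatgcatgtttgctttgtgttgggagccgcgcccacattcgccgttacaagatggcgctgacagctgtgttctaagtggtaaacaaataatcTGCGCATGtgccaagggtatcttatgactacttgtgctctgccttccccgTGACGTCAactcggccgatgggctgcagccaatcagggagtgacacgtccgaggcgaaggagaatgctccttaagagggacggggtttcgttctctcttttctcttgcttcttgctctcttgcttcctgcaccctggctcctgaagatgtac
Gm29709 window, chr12:85407854-85408153, minus strand, IAPLTR1a_Mm: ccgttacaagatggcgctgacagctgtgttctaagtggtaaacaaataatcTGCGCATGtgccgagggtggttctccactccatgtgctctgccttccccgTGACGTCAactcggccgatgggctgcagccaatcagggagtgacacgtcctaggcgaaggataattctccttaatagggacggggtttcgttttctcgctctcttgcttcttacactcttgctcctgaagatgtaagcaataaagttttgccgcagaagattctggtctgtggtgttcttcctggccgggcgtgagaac
Gm19757 window, chr6:105492619-105492918, minus strand, IAPLTR2a2_Mm: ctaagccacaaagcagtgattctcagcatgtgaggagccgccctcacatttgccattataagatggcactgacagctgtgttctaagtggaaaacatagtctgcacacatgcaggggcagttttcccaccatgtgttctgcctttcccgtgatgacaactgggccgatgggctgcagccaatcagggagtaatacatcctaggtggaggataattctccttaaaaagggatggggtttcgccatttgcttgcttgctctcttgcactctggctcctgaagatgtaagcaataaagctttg
TGCGCATG was present in 4 of these 5 windows and in 698 of all 32851 RefSeq promoter windows (2.12%), and TGACGTCA in 2 of 5 and 588 (1.79%). The insertion behind the Eps8l1 window, with 4556 internal bp, had 1891 reads over the 3 KO Spg libraries and 27 over the 3 WT libraries, and 2118 against 51 in Spc. That behind the Gm39637 window (4572 bp) had 320 against 49 reads in Spg and 305 against 1 in Spc. The insertion at the Gm14149 window (6364 bp) had 80 against 0 in Spg and 103 against 0 in Spc, and the IAPLTR1a_Mm insertion at the Gm29709 window (6458 bp) 16 against 3 and 41 against 3. At the Gm19757 window, where neither motif was found, the IAPLTR2a2_Mm insertion (3507 bp) had 3 against 0 reads in Spg and 5 against 0 in Spc. A motif match is a description of the letters in these windows alone.

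The start of the internal region could be shown where a RefSeq window, or for Noct a GENCODE transcript, crossed the LTR border. The last 8 LTR bases are given in lower case and the first 22 internal bases in capitals, and the primer binding site begins within the capitals.
Noct transcript, chr3:51240379-51240408, plus strand, IAPLTR1_Mm: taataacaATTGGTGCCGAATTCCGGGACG
Gm34032 window, chr16:31578665-31578694, minus strand, IAPLTR1_Mm: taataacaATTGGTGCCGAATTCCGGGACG
Gm52432 window, chrX:65707255-65707284, plus strand, IAPLTR1a_Mm: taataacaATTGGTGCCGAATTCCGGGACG
Gm52448 window, chrX:89677912-89677941, plus strand, IAPLTR2a2_Mm: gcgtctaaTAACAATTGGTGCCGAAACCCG
The first 3 of these borders had the same letters, although the reads of their insertions differed. All 4 share the run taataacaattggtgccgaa (20 bases), and in the Gm52448 window the annotated border lies earlier in it, after 3 of its bases in place of 8, with other letters after the run. The Gm34032 insertion had 221 reads in KO Spg and 461 in KO Spc against 3 and 0 in WT, and the Gm52432 insertion 150 and 281 against 0 and 11. The Gm52448 insertion had 9 and 13 against 3 and 7.

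At the level of the subfamily, IAPEz-int RNA was higher in the KO than in the WT at both stages. In Spg the counts were 87406, 70160 and 69044 in the KO libraries and 5531, 5859 and 5129 in the WT libraries, and every KO library lay above every WT library. After TMM scaling the level was 1563 ± 173 CPM (SD, n = 3) in KO Spg and 124 ± 18.9 CPM (n = 3) in WT Spg, a log2 fold change of 3.66 (SE 0.167, adjusted p = 0.000213, edgeR quasi-likelihood test with Benjamini-Hochberg adjustment over all genes and TE subfamilies). Of 921 TE subfamilies tested in Spg, 7 passed an adjusted p of 0.01 (0.76%), and 11 passed with the replicate numbers as a block. These numbers were taken to pair the Spg libraries, though no label says so. In Spc the counts were 87600, 60588, 134240 and 94129 in KO against 4251, 2860, 9388 and 3460 in WT. The groups again did not overlap, with KO replicate 3 and WT replicate 3 the highest of their groups. The level was 1613 ± 539 CPM in KO and 122 ± 49.5 CPM in WT (SD, n = 4 each), a log2 fold change of 3.73 (SE 0.376, adjusted p = 2.78e-05), where 239 of 929 TE subfamilies (25.7%) passed. With counts scaled by library totals in place of TMM the Spc log2 fold change was 4.35, while the median over all genes moved from 0.11 to 0.79, so Spc folds in CPM below carry this shift.

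**Figure D1:**
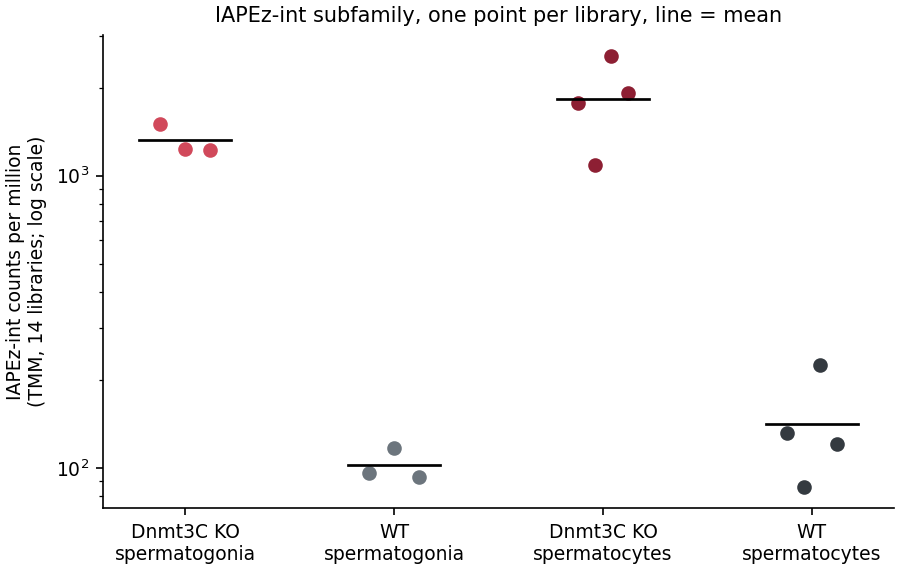
IAPEz-int CPM in each of the 14 libraries on a log axis, scaled together by TMM, with 1 point per library. The KO Spg libraries sat at 1225 to 1497 CPM and the KO Spc libraries at 1086 to 2559 CPM, above the WT libraries at 86.2 to 225 CPM.

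The rise in the KO did not differ detectably between the stages. Scaled over all 14 libraries, the plot of IAPEz-int levels per library shows KO Spg at 1497, 1235 and 1225 CPM and KO Spc at 1771, 1086, 2559 and 1917 CPM, with overlapping ranges. WT Spg had 95.6, 117 and 93.4 CPM and WT Spc 131, 86.2, 225 and 120 CPM, which overlapped too. The genotype effect in Spc minus that in Spg was 0.01 on the log2 scale (SE 0.425, adjusted p = 0.996, edgeR), where 6.44% of TE subfamilies passed. With library totals it was 0.67 (SE 0.496, adjusted p = 0.277), while the median interaction over all TE subfamilies moved from 0.07 to 0.78. KO Spc against KO Spg gave a log2 difference of 0.48 (SE 0.303, adjusted p = 0.353; 1.43% of subfamilies passed). WT Spc against WT Spg gave 0.47 (SE 0.304, adjusted p = 0.192; 25.5% passed), and -0.29 when scaled by library totals. IAPEz-int made up 2.7 to 4.67% of TE counts in KO Spg libraries and 0.330 to 0.509% in WT Spg, and 2.32 to 3.45% in KO Spc against 0.275 to 0.650% in WT Spc.

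The reads per copy, recovered from the deposited TPM values, were then summed by insertion and by 5′ LTR. These classes were set after the values had been seen and are given as descriptions without a test. Insertions with a 5′ IAPLTR1_Mm (659 insertions, 29.7% of IAPEz-int bases) held 75.2 ± 1.7% of the IAPEz-int reads in KO Spg (SD, n = 3) and 75 ± 1.7% in KO Spc (n = 4). In WT they held 28.7 ± 5.0% in Spg and 12.5 ± 0.72% in Spc. The KO shares were 73.2 to 76.4% in Spg and 72.6 to 76.7% in Spc, so the 7 KO libraries were much alike and lay apart from the 7 WT libraries, which ranged from 11.5 to 33.9%.

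The other LTR classes took less of the KO reads than of the bases, apart from insertions without a 5′ LTR. Those with a 5′ IAPLTR1a_Mm (825 insertions) made up 36.8% of the bases but 9.76 ± 0.62% of KO Spg reads and 10.1 ± 0.62% of KO Spc reads, against 27.1 ± 2.0% in WT Spg and 20.5 ± 4.9% in WT Spc. For IAPLTR2_Mm (380 insertions, 10.6% of bases) the shares were 5.03 ± 0.81% and 3.81 ± 0.61% in KO Spg and Spc, and 18.5 ± 6.8% and 38.3 ± 6.9% in WT. IAPLTR2b (194 insertions, 5.48% of bases) had 1.67 and 1.73% in KO and 13.7 and 10.1% in WT. IAPLTR2a (128 insertions) had 0.498 and 0.722% in KO and 4.61 and 10.5% in WT, and IAPLTR2a2_Mm (426 insertions) 0.810 and 0.923% against 3.02 and 4.48%. The 271 insertions with no LTR annotated at the 5′ end, 5.32% of the bases, had 6.94 and 7.70% of reads in KO Spg and Spc and 4.11 and 3.42% in WT.

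**Figure D2:**
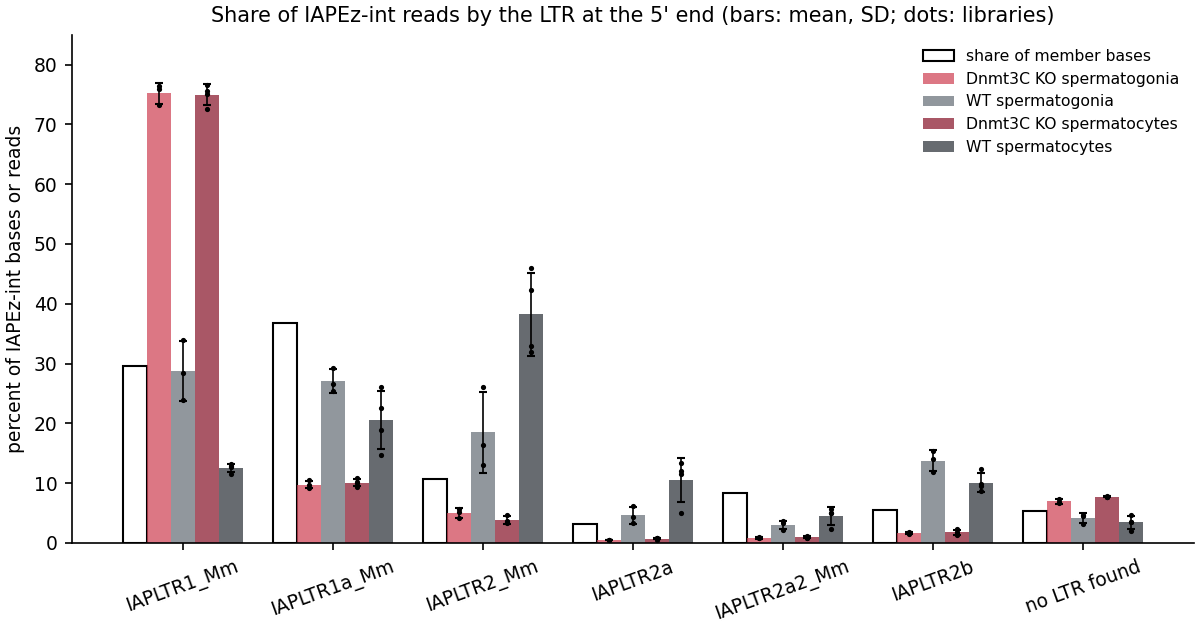
Share of IAPEz-int reads (%) by the LTR at the 5′ end of the insertion, as the mean and SD over the libraries of each group, with the share of IAPEz-int bases for comparison. IAPLTR1_Mm insertions held 75.2% and 75% of reads in KO Spg and Spc with 29.7% of the bases.

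Within the IAPLTR1_Mm class, the reads differed with the length of the internal region, and all length classes under 6000 bp were denser in reads in the KO than the full-length class. Insertions of at least 4000 and under 5000 internal bp, the 4 to 5 kb class, 226 in number and 8.52% of IAPEz-int bases, held 56.5 ± 3.2% of all IAPEz-int reads in KO Spg and 53.7 ± 1.1% in KO Spc. In WT they held 14.8 ± 5.1% in Spg and 6.32 ± 0.79% in Spc, and the KO libraries (52.3 to 59.6%) did not overlap with the WT libraries (5.61 to 20.6%). Insertions of at least 6000 bp, the full-length class with 328 members and 17.7% of bases, held 7.10 ± 0.32%, 8.14 ± 0.48%, 9.50 ± 0.83% and 4.84 ± 0.40% in KO Spg, KO Spc, WT Spg and WT Spc.

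Density is given as RPKM, the IAPEz-int reads of a class per kilobase of its internal sequence, scaled by the total counts of the library without TMM factors. The 4 to 5 kb class gave an RPKM of 0.872 ± 0.14 in KO Spg and 0.0167 ± 0.0050 in WT Spg, a 52.0-fold ratio of means. In Spc it gave 1.08 ± 0.37 in KO and 0.0057 ± 0.0030 in WT, a 190-fold ratio. The full-length class gave 0.0523 ± 0.0044 against 0.0052 in Spg (10.0-fold) and 0.0793 ± 0.031 against 0.0021 in Spc (37.2-fold). Within each library the shorter class was read 14.8 to 18.1 times as densely as the full-length class in KO Spg and 12.9 to 14.5 times in KO Spc, compared with 2.42 to 4.93 times in WT Spg and 2.22 to 3.25 times in WT Spc. These ratios within a library do not depend on its scaling. They do depend on how reads that align to several copies were shared between the classes, which was not tested. Other short IAPLTR1_Mm insertions were dense too. The 11 insertions under 3000 bp (0.163% of bases) had an RPKM of 1.22 ± 0.046 in KO Spg and 1.88 ± 0.62 in KO Spc, above the 4 to 5 kb class, against 0.0157 and 0.0065 in WT. The 75 insertions of at least 3000 and under 4000 bp (2.39% of bases) had 0.499 ± 0.012 and 0.749 ± 0.28, with 9.18 and 10.4% of IAPEz-int reads in KO Spg and Spc, and the 19 of at least 5000 and under 6000 bp had 0.131 ± 0.0086 and 0.189 ± 0.070.

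Insertions of the same length with a 5′ IAPLTR1a_Mm were read far less in the KO. Those of 4 to 5 kb (89 insertions) gave an RPKM of 0.0347 in KO Spg and 0.0453 in KO Spc, 6.98 and 14.8 times the WT means. The density of the IAPLTR1_Mm insertions of this length was 25.2 ± 1.1 times that of the IAPLTR1a_Mm insertions in KO Spg and 24.0 ± 1.6 times in KO Spc, against 3.44 ± 0.54 in WT Spg and 1.83 ± 0.11 in WT Spc. At full length, the IAPLTR1_Mm class was 1.58 ± 0.062 times as dense as IAPLTR1a_Mm in KO Spg and 1.84 ± 0.17 times in KO Spc, but 0.776 ± 0.054 and 0.698 ± 0.12 times in WT. Of the other classes, insertions of 4 to 5 kb without an annotated 5′ LTR (46 insertions) came closest to the IAPLTR1_Mm class, at an RPKM of 0.441 in KO Spg and 0.638 in KO Spc, 42.0 and 286 times the WT means. The 18 IAPLTR2a insertions of this length had an RPKM of 0.0329, 0.0329 and 0.0373 in KO Spg against 0.0294, 0.0856 and 0.0243 in WT Spg, and 0.0463 to 0.117 in KO Spc against 0.0823 to 0.0980 in WT Spc. KO and WT overlapped at both stages, and in Spg the WT mean lay above the KO mean through WT replicate 2 alone.

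**Figure D3:**
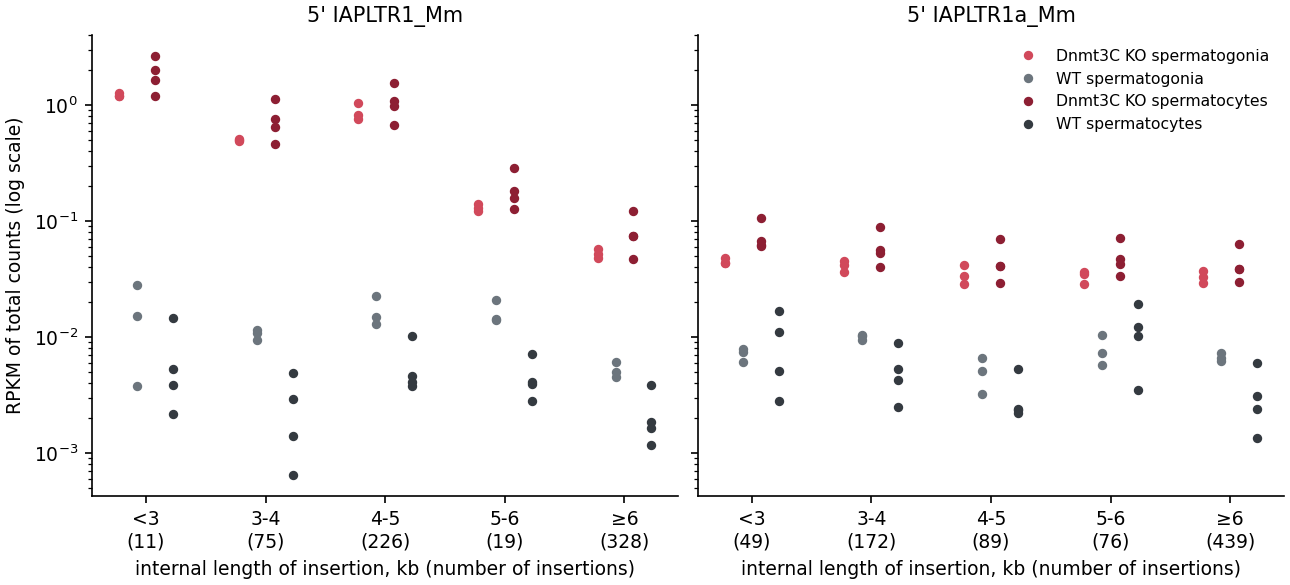
IAPEz-int density (RPKM, log axis) by internal length of the insertion, for insertions with a 5′ IAPLTR1_Mm (one panel) and a 5′ IAPLTR1a_Mm (the other), with 1 point for each library. In the IAPLTR1_Mm panel the KO means were 0.872 and 1.08 at 4 to 5 kb and 0.0523 and 0.0793 from 6000 bp, while the IAPLTR1a_Mm means stayed between 0.0332 and 0.0744 in the KO at all lengths.

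Most insertions of the 4 to 5 kb class shared an internal gap. RepeatMasker split 201 of the 226 insertions into 2 fragments, with a median of 1261 bp for the 5′ and 3271 bp for the 3′ fragment, and in 187 of the 201 the fragments met within 10 bases. Their summed length had a median of 4524 bp, which is 1875.5 bp less than the 6399.5 bp of full-length IAPLTR1_Mm insertions, and all 201 also ended in an IAPLTR1_Mm. IAPs that have lost part of gag and pol are a known type in the mouse genome. The insertion in Noct, the gene of the circadian protein nocturnin, belongs to this type and shows a junction. Its fragments, chr3:51240387-51241612 (1226 bp) and chr3:51241611-51244882 (3272 bp), met at the border between lower case and capitals, printed here as an example. The junctions of the other insertions were not read.
Noct fragment junction, chr3:51241596-51241625, plus strand: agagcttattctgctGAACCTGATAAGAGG
A GENCODE transcript of Noct starts at position 51240206, inside the LTR and 181 bases before the internal region, so reads of the insertion and of this transcript cannot be told apart. The insertion had 1048, 652 and 624 reads in KO Spg against 16, 107 and 86 in WT, and 679, 394, 1320 and 729 reads in KO Spc against 2, 0, 8 and 0 in WT. Neither pair of groups overlapped. The gene Noct as a whole had 72.8 ± 5.0 CPM in KO Spg and 51.5 ± 1.0 CPM in WT Spg (log2 fold change 0.50, SE 0.127, adjusted p = 0.202), and 48.6 ± 6.4 against 30.5 ± 5.1 CPM in Spc (0.67, SE 0.208, adjusted p = 0.0149), neither of which passed 0.01.

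Reads were spread over most insertions of the 4 to 5 kb class, unevenly. All but 1 of its 226 insertions had a KO Spg read and 150 had at least 100 over the 3 libraries, with a median of 201.5 reads. Over the 3 WT Spg libraries the median was 3 reads and 53 insertions had none. In KO Spc the median was 375 reads over 4 libraries and 182 insertions had at least 100, while the WT Spc median was 1 read. Full-length IAPLTR1_Mm insertions had medians of 28 reads in KO Spg and 57.5 in KO Spc, and 1 in either WT group. Along the 201 insertions in 2 fragments, the 5′ fragment was read 1.80 ± 0.13 times as densely as the 3′ fragment in KO Spg and 1.72 ± 0.17 times in KO Spc, compared with 1.38 ± 0.13 in WT Spg and 1.17 ± 0.46 in WT Spc. These ratios are of reads summed over insertions. Singly, the 5′ fragment was the denser in 87 of 159 insertions with at least 50 KO Spg reads and in 100 of 190 in KO Spc.

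Most insertions with reads had more of them in the KO. Of 2914 insertions, 2227 had more reads over the KO Spg libraries than over the equally many WT libraries and 195 had fewer, and in Spc 2343 had more and 246 fewer. These are reads without scaling, and the reads over all TE copies were also higher in the KO, at 1649727 to 2545285 per KO library against 1067405 to 1520108 per WT library in Spg and 2576284 to 3833925 against 825841 to 1410905 in Spc. No such tally was made over other TEs, and in Spc the median log2 fold change of all TE copies above 0 was itself 0.75 (limma on TPM). In KO Spg 54 insertions supplied 50% of the IAPEz-int reads and the first 10 supplied 19.7%, and in KO Spc 64 insertions supplied 50% and the first 10 15.9%. In WT fewer loci supplied 50% of the reads, with 35 insertions and 29.5% from the first 10 in Spg, and 11 insertions and 49.0% in Spc. For 90% of reads it took 585 insertions in KO Spg and 538 in WT Spg, and 648 and 489 in Spc. The WT groups had far fewer IAPEz-int reads, 15608 against 223985 in Spg and 18790 against 372624 in Spc.

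**Figure D4:**
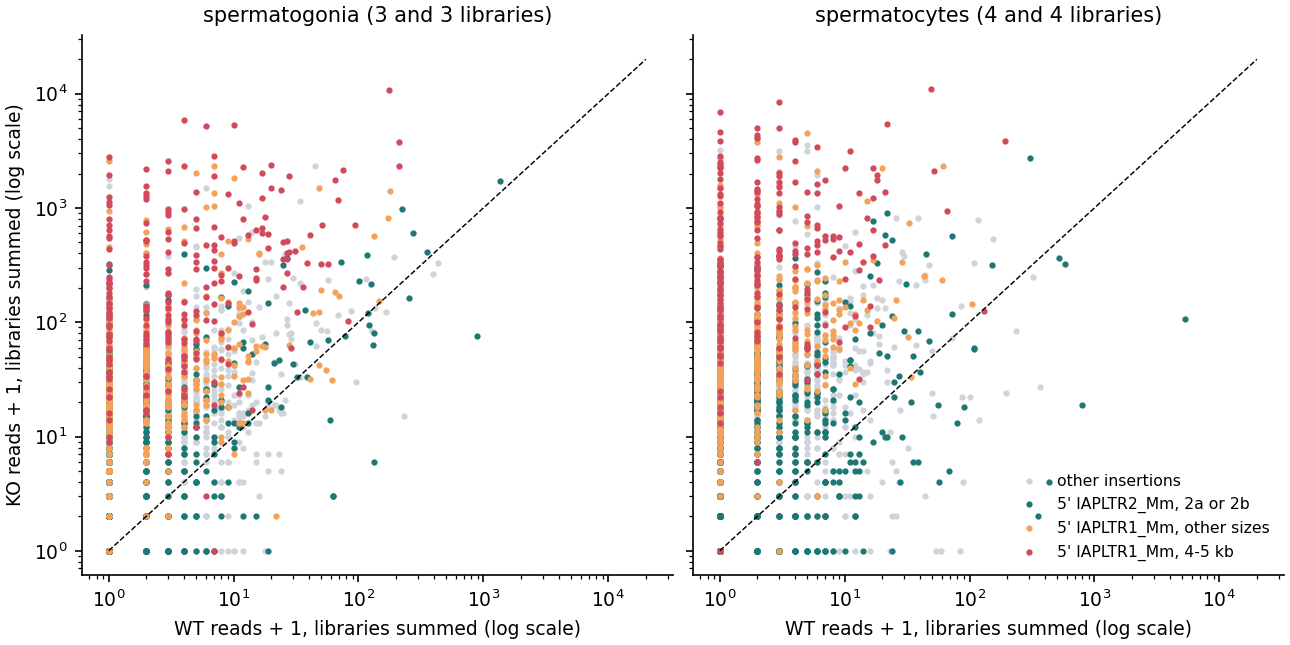
Reads + 1 of each IAPEz-int insertion summed over the KO libraries (vertical) against those summed over the WT libraries (horizontal), on log axes, in Spg and in Spc, coloured by 5′ LTR class. Of 2914 insertions, 2227 lay on the KO side in Spg and 2343 in Spc, and 12 and 14 of those with at least 100 WT reads lay on the WT side.

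The 10 insertions with most reads in KO Spg and in KO Spc all had a 5′ IAPLTR1_Mm, 9 and 8 of them belonged to the 4 to 5 kb class, and 7 were shared between the stages. None of them was among the first 10 of either WT group. The highest was chr11:51665383-51669881 on the minus strand, intergenic and 10972 bp from D930048N14Rik. It had 4250, 3103 and 3471 reads in KO Spg against 122, 35 and 17 in WT, and 2304, 1975, 4176 and 2458 in KO Spc against 7, 13, 28 and 0 in WT. KO and WT did not overlap at either stage. The next was chr7:89568935-89573430, 4126 bp from Gm45064, with 2351, 1544 and 1990 reads in KO Spg against 2, 1 and 0, and 1701, 1459, 3272 and 2069 in KO Spc against 0, 0, 2 and 0. The third was chr2:148410958-148415535, 2770 bp from Thbd, the gene of the anticoagulant receptor thrombomodulin. It had 2088, 1555 and 1650 reads in KO Spg against 5, 3 and 1, and 1542, 1012, 2778 and 1547 in KO Spc against 0 in each WT library. Reads that align to several copies were shared between them, so the split of reads between near-identical insertions is uncertain.

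A second set of insertions was read mainly in WT. At chr14:24413233-24416721, an IAPLTR2_Mm insertion of 3388 internal bp 8443 bp from Gm41109, KO Spc had 20, 18, 53 and 15 reads and WT Spc 786, 873, 3035 and 598. It supplied 28.2% of all WT Spc IAPEz-int reads, and 33.9% in WT replicate 3. In Spg the same insertion had 28, 25 and 22 reads in KO and 79, 731 and 81 in WT. WT Spg replicate 2, which stood above the other WT libraries there, also had the highest sum of pachytene markers (1841 CPM against 493 and 230 CPM in replicates 1 and 3), and the part of this in the reads of the insertion was not tested. The unclassified gene Gm41109 had 0.232 ± 0.15 CPM in KO Spc and 95.9 ± 31.7 CPM in WT Spc (log2 fold change -8.69, SE 0.649, adjusted p = 5.68e-06), and it did not pass in Spg (adjusted p = 0.105). At chr13:50557458-50559235, 2238 bp from the pseudogene Gm20789, KO Spc had 1, 2, 3 and 12 reads and WT Spc 206, 131, 264 and 195. At chr8:104269987-104272570, an IAPLTR2b insertion 5049 bp from Cklf, which encodes a chemokine-like factor, KO Spc had 0, 1, 0 and 0 reads and WT Spc 92, 71, 109 and 79. Cklf RNA was lower in KO Spc (log2 fold change -3.37, SE 0.234, adjusted p = 4.35e-06), as was Gm20789 (-3.17, SE 0.435, adjusted p = 0.000166). WT Spc held cells of later stages than KO Spc, as the marker sums show, and stage and genotype cannot be told apart for such loci.

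The full-length IAPLTR2b insertion at chr5:30223381-30229822, 2759 bp from Selenoi, the gene of a phospholipid-synthesising transferase, was read in all groups. It had 768, 632 and 318 reads in KO Spg and 503, 430 and 417 in WT Spg, with overlapping ranges, and it had most reads of all insertions in WT Spg. In Spc it had 695, 702, 710 and 654 reads in KO and 36, 52, 177 and 37 in WT, which did not overlap. A pair of IAPLTR2a insertions on chromosome 4, chr4:42100784-42104940 and chr4:42598114-42602270, had the same 4036 internal bp and nearly the same reads (79 and 62 over KO Spg, 132 and 130 over WT Spg, 320 and 367 over KO Spc, 580 and 521 over WT Spc), so their reads may belong to either. All 18 IAPLTR2a insertions of 4 to 5 kb had 460 WT Spg and 1348 WT Spc reads, so this pair held most of them.

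Single copies were tested by limma on log2(TPM + 0.1), where TPM scales length-corrected reads over TE copies alone, for copies whose TPM averaged 0.5 or more. In Spg 707 copies were tested and 3 were higher in the KO at an adjusted p under 0.01, beside 0.00872% of all 252388 TE copies, and 0 were lower (0.000396% of all). An unadjusted p under 0.05 was reached by 346 copies. With the replicate block 0 copies passed (398 at an unadjusted p under 0.05), and leaving out 1 library left 0 or 1. The edgeR test on the recovered reads called 408 of the 707 higher and 6 lower, against 1.55% and 0.204% of all copies. The median log2 fold change of the tested copies was 3.66 by limma, and that of all tested TE copies was 0.03. Copies can pass the filter through the KO libraries alone, so this median is no measure of all members. Over the 3704 copies above 0 in any Spg library it was 0.95, against 0.23 for all such TE copies. In Spc 752 copies were tested, of which limma called 377 higher and 14 lower, where 7.17% of 241893 TE copies were called higher and 4.06% lower, and edgeR on reads called 526 higher and 31 lower, against 6.89% and 5.07%. With Spc replicates 1 and 4 of each genotype averaged, since they were more alike than other pairs, limma called 178 higher and 9 lower (2.63 and 2.14% of all copies). The median was 3.9, and 1.39 over all tested copies, while over the 4302 copies above 0 it was 0.86, close to the 0.75 of all such TE copies. Of the 408 copies that edgeR called higher in Spg, 368 (90.2%) were among the 526 in Spc (70.0% of those). The same overlap was not counted over all TE copies, so it cannot be read as particular to IAPEz-int.

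The called copies differed in number between the LTR classes. Copies can pass the filter through the KO libraries alone, and fragments of 1 insertion count as separate copies. The counts below are therefore no measure of whole classes, which were set after the values had been seen. In Spc, where 7.17% of all TE copies were called higher and 4.06% lower, limma called 295 of 407 copies with a 5′ IAPLTR1_Mm higher and 0 lower (by edgeR 381 and 1), and 212 of 286 in the 4 to 5 kb class. For IAPLTR1a_Mm it called 25 of 104 higher and 1 lower, for IAPLTR2_Mm 22 of 95 higher and 7 lower, for IAPLTR2b 3 of 27 higher and 4 lower, and for IAPLTR2a2_Mm 4 of 32 higher and 2 lower. None of 24 IAPLTR2a copies was called by limma, and edgeR called 1 higher and 1 lower. In Spg limma called 2 of 379 IAPLTR1_Mm copies and 1 of 49 copies without a 5′ LTR higher, and 0 with the replicate block. There edgeR on reads, which called 1.55% of all copies higher and 0.204% lower, called 321 of the 379 IAPLTR1_Mm copies higher, 22 of 90 for IAPLTR1a_Mm and 29 of 121 for IAPLTR2_Mm, which also held 5 of the 6 lower copies.

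The 3 copies called in Spg were also called in Spc. The copy chr11:51668653-51669881 (1229 bp), the 5′ fragment of the highest insertion, had 209, 100 and 149 TPM in KO Spg and 6.75, 1.87 and 1.24 TPM in WT (5.80 on the log2(TPM + 0.1) scale, SE 0.664, adjusted p = 0.00224). In Spc it had 85, 62.8, 127 and 82.0 TPM against 1.01, 0.301, 1.79 and 0 (7.33, SE 0.910, adjusted p = 0.000506). A 265 bp copy with no annotated 5′ LTR, chr5:7493320-7493584, had 194, 79.1 and 166 TPM in KO Spg against 1.28, 1.83 and 1.64 (6.36, SE 0.655, adjusted p = 0.00101), and 148, 128, 211 and 191 TPM in KO Spc against 0.778, 0, 2.07 and 0. The 5′ fragment at chr12:108082926-108084063, 22368 bp from Setd3, which encodes an actin methyltransferase, had 127, 49.7 and 73.5 TPM in KO Spg and was listed at 0 in all WT Spg libraries (adjusted p = 0.00935). The groups did not overlap in any of the 3 cases, and KO replicate 2 was the lowest KO library in Spg.

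The 5 copies with the largest rise in Spc were all fragments of IAPLTR1_Mm insertions and were listed at 0 in each WT Spc library, so no fold is given. A 1272 bp copy antisense to an exon of Lrrc8d, a subunit of the volume-regulated anion channel, had 85.3, 35.9, 107 and 102 TPM in KO Spc (adjusted p = 6.36e-05). Copies in introns of Dlg2, a synaptic scaffold protein gene, and Gng7, a G protein gamma subunit gene, both antisense to the gene, had 45.4 to 81.6 TPM and 44.2 to 81.4 TPM. Those near Gm45064 and near Gp2, a glycoprotein gene, had up to 103 and up to 80 TPM. As genes, Lrrc8d rose in KO Spc (log2 fold change 2.31, SE 0.514, adjusted p = 0.00266), Gng7 rose (2.12, SE 0.564, adjusted p = 0.00679) and Dlg2 fell by 1.67 (SE 0.375, adjusted p = 0.00271), and none of them passed in Spg. The largest falls were fragments of the insertions near Gm41109, Gm20789 and Cklf. The 2361 bp fragment near Gm41109, chr14:24413233-24415593, had 0.881, 0.768, 1.73 and 0.680 TPM in KO Spc and 51.9, 52.1, 132 and 47.8 TPM in WT (-5.94, SE 0.622, adjusted p = 0.000245), and 1.75, 0.885 and 1.20 TPM in KO Spg against 4.88, 26.2 and 2.90 in WT. In Spg it was not called by limma (-2.46, SE 1.29, adjusted p = 0.784) but was called lower by edgeR on reads (-3.21, SE 0.592, adjusted p = 5.6e-06).

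**Figure D5:**
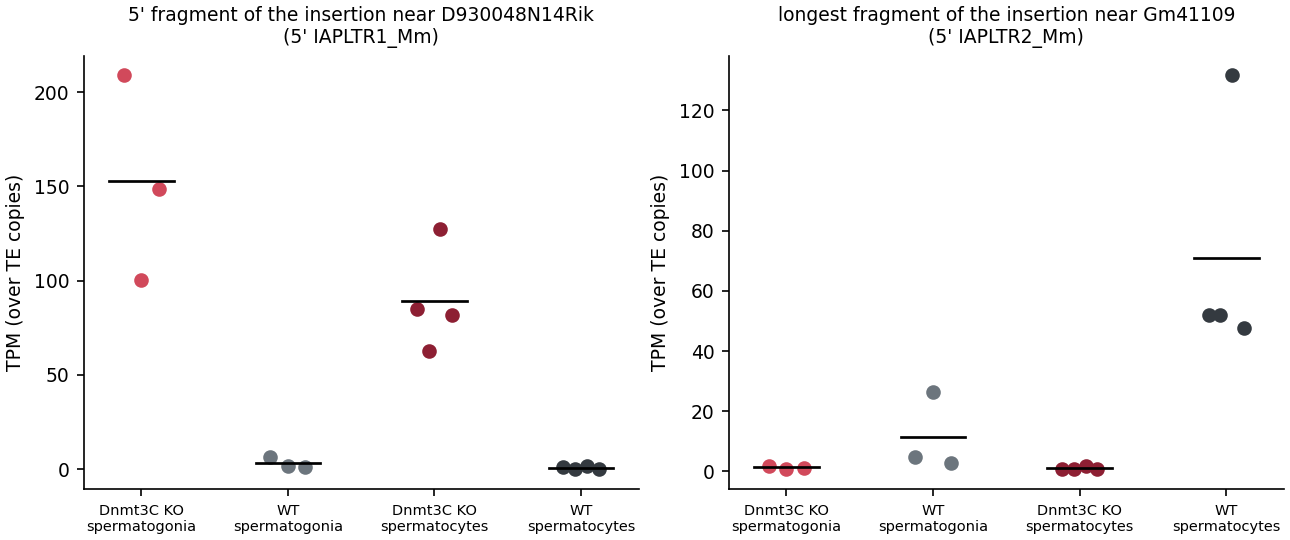
TPM per library (linear axis, with the group mean as a line) of a fragment that was higher in KO, near D930048N14Rik, and of a fragment that was higher in WT, near Gm41109, with 1 point per library in the 4 groups. The first lay at 100 to 209 TPM in KO Spg and 62.8 to 127 in KO Spc, and the second at 47.8 to 132 TPM in WT Spc and below 2 TPM in every KO library.

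The LTRs that belong to IAPEz-int, and other IAP subfamilies, moved in part with it. Of a list of 23 such subfamilies, 2 rose in Spg and 0 fell (8.7% against 0.76% of all subfamilies; median log2 fold change 0.89 against -0.03). IAPLTR1_Mm RNA went from 9.95 ± 0.42 to 142 ± 12.5 CPM (3.83, SE 0.143, adjusted p = 8.42e-05), and IAPA_MM-int, the internal part of a related IAP, from 0.561 ± 0.24 to 39.4 ± 7.9 CPM (6.12, SE 0.370, adjusted p = 0.00126). IAPLTR2_Mm missed the threshold at 2.61 (adjusted p = 0.0101) but passed with the replicate block (2.62, adjusted p = 0.00598), which gave 3 of the 23 (13% against 1.19% of all subfamilies). IAPLTR1a_Mm was at 0.96 (adjusted p = 0.129) and IAPLTR2a2_Mm at 0.25 (adjusted p = 0.9996). In Spc 14 of the 23 rose and 2 fell (69.6% against 25.7%; median 1.57 against 0.10). IAPLTR1_Mm rose by 4.38 (SE 0.308, adjusted p = 4.51e-06), IAPLTR2_Mm by 1.72, IAPLTR1a_Mm by 1.46 and IAPLTR2a by 1.14, whereas IAPLTR2b (1.28, adjusted p = 0.0104) and IAPLTR2a2_Mm (0.18, adjusted p = 0.640) did not pass. The 2 that fell were IAPLTR3 (-4.10, from 36.1 ± 4.1 CPM in WT to 2.10 ± 0.57 CPM in KO) and its internal part IAPLTR3-int (-3.65). Without WT Spc replicate 1 the list had 8 calls (34.8% against 16.2% of all subfamilies) and without WT Spc replicate 4 it had 9 (39.1% against 16.9%), with 2 falling in either case. With Spc replicates 1 and 4 summed 5 rose and 2 fell (30.4% against 12.4%).

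Of 18 genes that are known to act on IAPs or their methylation, 0 passed in Spg by edgeR or by DESeq2, and 1 had an unadjusted p under 0.05 (genes called in Spg, 0.0436%). In Spc 3 rose and 4 fell, where 58.8% of all genes were called. The chromatin remodeller Hells (log2 fold change 2.65), the piRNA pathway gene Tex15 (2.54) and Creb1 (0.80) rose. The piRNA pathway gene Mael (-3.31), the DNMT3 cofactor Dnmt3l (-2.45), the KRAB zinc finger co-repressor Trim28 (-1.49) and Uhrf1 (-0.78), which recruits the maintenance methyltransferase, fell. With library totals 8 rose and 2 fell, where 59.1% of all genes were called. Without KO replicate 3, without KO replicate 4 or with replicates 1 and 4 of Spc summed, 4 of the 18 passed, where 53.4, 51.1 and 39.3% of all genes were called. Nrf1 was at 0.09 in Spg and 0.47 in Spc (adjusted p = 0.106). Dnmt3c itself had 116, 58 and 67 counts in KO Spg against 89, 65 and 53 in WT (adjusted p = 0.9996), and 55, 56, 52 and 57 in KO Spc against 28, 11, 19 and 25 in WT (adjusted p = 0.124). Its RNA therefore does not show the genotype of the libraries.

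By genome position, 5509 copies with 74.1% of the bases were intergenic, 1705 with 23.5% were in introns and 105 with 2.42% overlapped an exon. The exonic copies held 6.96 ± 0.48% of reads in KO Spg and 7.05 ± 0.66% in KO Spc, against 5.06 ± 1.2% and 1.97 ± 0.14% in WT. Copies on the strand opposite to their host gene (1314, 18.3% of bases) held 22.3 and 23.2% of KO reads in Spg and Spc and 16.6 and 11.2% of WT reads. Copies on the strand of the gene (459, 6.94% of bases) held 8.55 and 8.56% in KO and 17.1 and 9.75% in WT. The X chromosome, with 6.94% of the bases, held 2.49 and 2.74% of KO reads and 3.87 and 1.49% of WT reads.

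The genes that hold IAPEz-int copies were called about as often as all genes in Spc. Of 399 host genes tested in Spg 1 passed (0.251% against 0.0436%), and this was Gm49794, which fell from 131 ± 90.9 CPM in WT to 0.083 ± 0.072 CPM in KO (adjusted p = 0.0026). Its counts were 2, 8 and 2 in KO and 3307, 9501 and 4133 in WT, and it did not pass when KO replicate 2 or KO replicate 3 was left out. With the replicate block 7 of the 399 host genes passed, 3 higher and 4 lower (1.75%), as did 108 of all 20659 genes (0.523%). In Spc 126 of 450 host genes rose and 140 fell (59.1% against 58.8% of all genes), or 177 and 103 with library totals, and the median log2 fold change was 0.12 against 0.11. Among host genes of copies that edgeR called higher, those with the copy in an exon on their own strand numbered 3 in either stage. In Spc 2 of these 3 rose (median log2 fold change of the 3, 8.22), and their reads cannot be told apart from those of the IAP. Of 69 genes with a called antisense copy in an intron, 19 rose and 15 fell in Spc (median log2 fold change 0.26), and 0 of 52 passed in Spg by edgeR. With the called intronic copy on the strand of the gene, 8 of 19 genes rose and 2 fell in Spc (median 0.90), and 0 of 12 passed in Spg.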

How the data were processed

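RNA-seq libraries were made by the authors with a stranded mRNA kit, trimmed with cutadapt 4.0 and aligned with STAR 2.7.3a to GRCm38, allowing up to 100 alignments per read (tools per the labels). The deposited counts per gene and TE subfamily came from TEtranscripts, and the deposited TPM values per TE copy from TElocal, both of which share multimapping reads between copies. The authors' columns of fold changes and p-values in the count tables were not used.

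Counts were tested with edgeR 4.0.16 (quasi-likelihood test, filterByExpr, TMM; R 4.3.3) within each stage, and over all 14 libraries for the stage contrasts. TPM values were tested with limma 3.58.1 (trend) on log2(TPM + 0.1) for copies with a mean of at least 0.5. All p-values were adjusted by Benjamini-Hochberg over the whole table, with a threshold of 0.01. TPM times copy length gave whole reads, within 0.01 of a read, for 100% of the values, and those reads were tested with edgeR and summed. Copies of 1 strand within 500 bp were joined into insertions, and an LTR within 100 bp of the 5′ end gave the class. DESeq2 1.42.0 was an alternative. Tests were tried on simulated data first. Intervals and spreads cover the libraries at hand, and PCR duplicates could not be removed.

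Same-numbered KO and WT Spg libraries deviated together (r = 0.757, 0.186 and 0.297 for replicates 1 to 3), so the numbers were taken to pair them, and the block is given where it changes a call. No label states this pairing, it rests mainly on replicate 1, and differently numbered libraries were not compared. The r of Spg replicate 2 lay below that of Spc replicate 2. The Spc correlations (0.061, 0.197, -0.033 and 0.116) did not all reach this level. Spc replicates 1 and 4 were more alike than the other Spc pairs but differed beyond sampling noise, and were kept apart.

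The members, gene lists and tests were chosen with earlier results of these data known. The LTR and length classes, the rankings and the loci shown were chosen after values had been seen. Named copies were the highest in KO, the highest in WT, and the largest rises and falls past the threshold.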

Additional observations from a re-analysis of the deposited data

Results flagged for a closer look

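In groups of 4 Spc libraries, 1 library lay far from the other 3 by Dixon's criterion in 11 of 134 groups of values examined, and some such cases arise by chance. WT Spc replicate 3 was the high library for IAPLTR3-int (212 CPM), the piRNA pathway gene Tex15 (119 CPM), IAPEY4_I-int (17.1 CPM), IAPLTR2_Mm (21.6 CPM) and IAPEY4_LTR (1.82 CPM). KO Spc had a high library for IAPEY_LTR (14.4 CPM). Among copies, the fragments of the insertion near Gm41109 were high in WT Spc replicate 3 too, with 132 TPM for IAPEz-int_dup5781, 107 TPM for IAPEz-int_dup5785 and 140 TPM for IAPEz-int_dup5783. All high WT Spc values flagged here thus came from 1 library. That library also had the highest spermatogonial (203 CPM) and spermatid (1048 CPM) marker sums of WT Spc, and the lowest pachytene sum (7269 CPM). The part of this in the flagged values was not tested. For IAPEz-int_dup5785 1 KO Spc library had 0.812 TPM where the other 3 had 0, and for IAPEz-int_dup3344, near Cklf, 1 had 0.121 TPM where the other 3 had 0.

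The genotype effect differed between the stages for IAP-d-int, with an interaction term of 2.27 on the log2 scale (edgeR over 14 libraries, SE 0.574, adjusted p = 0.00669), and for IAP1-MM_I-int, with 2.72 (SE 0.685, adjusted p = 0.00657). Both fell from WT Spg to WT Spc (-2.35 and -2.98), and neither passed between KO Spg and KO Spc (-0.08 and -0.26), as 6.44% of subfamilies passed the interaction test.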

How the results depend on the processing

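The higher IAPEz-int level in the KO passed the threshold in all 11 alternatives in Spg (log2 3.58 to 3.8; adjusted p 8.16e-60 to 0.00175) and all 14 in Spc (3.52 to 4.35). The genotype effect in Spc minus Spg, 0.01, was -0.0147 with DESeq2, -0.0189 with its size factors and -0.0874 with Spc replicates 1 and 4 summed, but 0.67 with library totals (adjusted p = 0.277), and passed in none of 20 alternatives. WT Spc against WT Spg was -0.29 with library totals. Counts of calls moved more, and the cause was not tested. In Spg the IAP subfamilies called were 8 with DESeq2 (7 higher and IAPLTR3 lower at -2.87), 4 without the filter on low counts and 3 with the replicate block, where 2.24, 1.19 and 1.19% of all subfamilies passed. The host genes called there were 27 with DESeq2, 2 with its size factors, 15 without the filter and 7 with the replicate block (5.96, 0.501, 2.6 and 1.75% of those tested), where 2.51, 0.0629, 0.441 and 0.523% of all genes passed. With Spc replicates 1 and 4 summed, 7 subfamilies (12.4% of all passed) and 4 regulator genes (39.3% of all genes) passed. Copies called higher in Spg were 37 with a pseudocount of 1, 0 with 0.01, 31 for all copies above 0, 0 from a mean TPM of 5, 5 after scaling by the TE share, 18 at an adjusted p of 0.05, 0 with the replicate block and 408 on reads, where 0.0638, 0.00119, 0.0274, 0, 0.0158, 0.0309, 0.000792 and 1.55% of all TE copies were called higher. Those in Spc were 250 with a pseudocount of 1, 124 from a mean TPM of 5, 157 with the replicate block and 178 with replicates 1 and 4 averaged, where 4.23, 10.2, 1.95 and 2.63% of all copies were. With the block, genes called in Spg went from 9 to 108 and TE subfamilies from 7 to 11, and regulators in Spc from 3 higher and 4 lower to 4 and 2, where the share of all genes went from 58.8 to 52.2%. It kept the IAPEz-int calls (in Spg 3.66, adjusted p = 0.000268). The block was also fitted for the genotype effect in Spc minus Spg, but not for KO Spc against KO Spg or WT Spc against WT Spg.

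Leaving out 1 library at a time gave 3.58 to 3.8 for IAPEz-int in Spg and 3.52 to 4.05 in Spc, 2 to 3 and 8 to 19 IAP subfamilies, 0 and 4 to 9 regulator genes, 0 to 2 and 229 to 305 host genes, -0.17 to 0.31 for the interaction, 0.23 to 0.61 and 0.16 to 0.64 for the KO and WT stage contrasts, and 0 to 1 and 263 to 434 copies. The shares of all features moved too, from 0.321 to 0.749% in Spg and 16.2 to 29.5% in Spc for subfamilies, 0 to 0.083% and 46.9 to 61.8% for genes, and 0 to 0.0056% and 3.9 to 10% for copies called higher. Chosen after seeing the data, joining fragments within 100 bp moved the KO minus WT share of the 4 to 5 kb class in Spc from 47.4 to 45.6 percentage points, and that of all IAPLTR1_Mm insertions from 62.4 to 56.8 (59.6 with LTRs within 20 bp). Reads of WT insertions were few (medians of 0 to 3 in most classes), which limits folds against WT.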
